A study of Mus musculus with 16 samples.

Results

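The Sult2a and Sult3a genes encode cytosolic sulfotransferases of the mouse liver. The 10 members, Sult2a1 to Sult2a8, Sult3a1 and Sult3a2, were taken by symbol from the 78317 genes listed in each of 16 libraries. They were selected on measured values: the family was chosen by symbol after earlier results of these data had shown a female fall of Sult2a7 on a high fat diet, opposite in direction to males, and large female excesses of Sult3a1 and Sult3a2. Values of the diet contrast in females, of the sex contrast on the normal diet and of the difference between the diet changes are therefore given below as descriptions, without tests. The same holds for every contrast of Sult2a7. Tests are given for the diet contrast in males and, for Sult2a8, for females against males on the high fat diet. The other members had almost all their counts in female libraries, through which they passed the filter on low counts, so their female excess is described on both diets without a test. For the same reason their diet tests in males say little.

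Cytosolic sulfotransferases move a sulfonate group from the activated donor PAPS to a hydroxyl or amino group of a small molecule, which makes it more soluble in water. Sult2a enzymes act on hydroxysteroids such as dehydroepiandrosterone and on bile acids, and Sult3a1 is known for acting on amines. In adult mice many hepatic genes of steroid and drug metabolism differ between the sexes, largely through the sex-specific pattern of growth hormone release, and most Sult2a genes and Sult3a1 are textbook examples of female-biased genes.

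The study asked how a high fat diet changes liver RNA in each sex. Wild type C57BL/6J mice arrived at 6 weeks of age and were fed for 10 weeks. The normal chow drew 4.5% of its calories from fat and the high fat diet 60%. The 4 groups were females on the normal diet, females on the high fat diet, males on the normal diet and males on the high fat diet, with 4 libraries each. The chow and the purified high fat diet came from different makers, so any difference between the diets includes more than fat. RNA came from powdered whole liver, and all libraries carry the batch number 1. The labels number the replicates without stating that each is a separate mouse, so the p-values measure the spread between libraries.

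Total expected counts per library lay between 22228115 and 41420589. The RNA of Xist and of the Y chromosome matched the labelled sex in all 16 libraries. The 7 hepatocyte markers were high throughout, at a summed 58608 to 124485 CPM (counts scaled to library size). Their sum was lower on the high fat diet in both sexes without overlap of the groups, at 86679 to 100697 against 110118 to 124485 in females and 58608 to 84079 against 87991 to 96397 in males. Most of that sum was Alb, at a mean of 71842 against 90610 CPM in females and 48465 against 68674 CPM in males, and not every marker was lower, as Ttr averaged 3559 against 3469 CPM in females and Cyp2e1 11421 against 8959 CPM in males. The 5 stellate cell markers summed to 95.8 to 176.2 CPM in high fat males and to 71.4 to 91.1 CPM in normal diet males. The 5 macrophage markers summed to 335.1 to 511.9 CPM in females on the high fat diet and to 197.9 to 294.3 CPM on the normal diet. The 4 pancreatic acinar markers summed to 0.398 to 18.8 CPM in high fat males and to 0.165 to 0.298 CPM in normal diet males. In females they reached 0.275 CPM on the high fat diet and 4.00 CPM on the normal diet. The 3 adipocyte markers reached 10.7 CPM in high fat males and 1.81 CPM in normal diet males. In high fat males Cfd averaged 5.99 CPM and Adipoq 0.723 CPM. The part of these shifts in the results below was not tested, and in whole liver fewer cells of a type and less RNA per cell cannot be told apart. Replicates 2 and 3 of the males on the high fat diet were unusually alike, with a chi-square of 4.07 per gene between them against 20.8 for the next closest pair of one group. Each test that uses males on the high fat diet was also run with these replicates averaged and without both.

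The near identity of some members limits what can be read from their separate counts, so the start of each coding sequence is shown. The lines give the first 60 bases of the GENCODE M21 coding models (GRCm38), with capitals where a base differs from Sult2a1 at the same position.
Sult2a1: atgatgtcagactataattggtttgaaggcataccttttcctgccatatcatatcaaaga
Sult2a2: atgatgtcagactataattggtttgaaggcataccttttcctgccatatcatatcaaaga
Sult2a3: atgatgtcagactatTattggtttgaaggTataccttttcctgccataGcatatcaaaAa
Sult2a4: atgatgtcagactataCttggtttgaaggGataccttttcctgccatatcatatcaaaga
Sult2a5: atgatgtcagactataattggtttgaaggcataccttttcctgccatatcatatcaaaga
Sult2a6: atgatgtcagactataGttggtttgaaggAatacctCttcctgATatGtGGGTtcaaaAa
Sult2a7: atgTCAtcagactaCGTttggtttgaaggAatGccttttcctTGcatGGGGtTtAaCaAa
Sult2a8: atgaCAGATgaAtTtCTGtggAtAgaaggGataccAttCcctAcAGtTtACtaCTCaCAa
Over these bases Sult2a2 and Sult2a5 showed 0 differences from Sult2a1, Sult2a4 showed 2, Sult2a3 showed 4, Sult2a6 showed 11, Sult2a7 showed 18 and Sult2a8 showed 26. Over the whole coding sequence, 97.95% of paired bases were identical between Sult2a1 and Sult2a2, whose model in this annotation is short (585 bases against 858). The figure was 94.87% for Sult2a5, 93.71% for Sult2a3, 82.06% for Sult2a7 and 72.77% for Sult2a8, and 90.93% between Sult3a1 and Sult3a2. Of all 50-base windows of a coding sequence, the share found in another member without a mismatch was 51.3% in Sult2a2, 33.3% in Sult2a1, 27.7% in Sult2a5 and 9.27% in Sult2a3. It was 8.16% in both Sult3a genes and 0% in Sult2a7 and Sult2a8. RSEM, which made the deposited counts, splits a read that maps to several genes between them. The counts of Sult2a1 and Sult2a2 were not whole numbers in 14 of 16 libraries each, and those of Sult2a5 in 9 of 16. For Sult2a3, Sult2a7 and Sult2a8 this was so in 0 of 16. The split between Sult2a1, Sult2a2 and Sult2a5 is thus uncertain, while their sum and the separate values of Sult2a7 and Sult2a8 are less exposed to it.

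The 8 Sult2a genes lie next to each other on chromosome 7, in the RefSeq order Sult2a5, Sult2a2, Sult2a1, Sult2a4, Sult2a3, Sult2a6, Sult2a8 and Sult2a7, with 0 other protein-coding genes between neighbours. Sult3a2 and Sult3a1 are neighbours on chromosome 10. The RefSeq promoter table (GRCm38.p6) held windows from 250 bases before to 50 bases after the start for 7 of the 10 members, and none was used for Sult2a1, Sult2a2 or Sult2a7. The windows below belong to the pair of members that were higher in females on the high fat diet (Sult2a3 on the minus strand at chr7:14122999-14123298, Sult2a5 on the plus strand at chr7:13623717-13624016) and to the member that was lower there but near equal between the sexes on the normal diet (Sult2a8, minus strand, chr7:14446538-14446837, the second of the starts listed for it). Each is written along its gene's strand, with motif matches in capitals.
Sult2a3: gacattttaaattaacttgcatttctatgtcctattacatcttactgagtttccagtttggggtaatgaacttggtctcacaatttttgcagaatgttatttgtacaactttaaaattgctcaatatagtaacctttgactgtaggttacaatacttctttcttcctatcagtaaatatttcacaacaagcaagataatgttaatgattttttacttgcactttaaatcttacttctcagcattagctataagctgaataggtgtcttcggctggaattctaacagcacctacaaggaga
Sult2a5: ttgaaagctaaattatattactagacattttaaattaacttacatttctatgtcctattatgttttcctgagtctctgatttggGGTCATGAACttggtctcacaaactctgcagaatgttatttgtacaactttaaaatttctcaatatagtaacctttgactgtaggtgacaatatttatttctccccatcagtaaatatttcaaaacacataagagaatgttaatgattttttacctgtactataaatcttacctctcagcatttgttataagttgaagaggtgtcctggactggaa
Sult2a8: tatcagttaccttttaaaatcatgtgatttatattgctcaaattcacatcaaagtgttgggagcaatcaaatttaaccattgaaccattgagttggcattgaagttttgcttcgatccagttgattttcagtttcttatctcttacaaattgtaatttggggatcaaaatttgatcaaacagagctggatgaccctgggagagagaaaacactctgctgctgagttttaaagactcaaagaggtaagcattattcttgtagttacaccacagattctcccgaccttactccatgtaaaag
The motifs were chosen after the letters had been seen, the longer one read from the Sult2a5 window with N at positions left free, and were searched on both strands. GNTCATGANC, an inverted repeat of a nuclear receptor half-site without a spacer, matched in Sult2a5 and Sult2a6 and in 0.347% of all 32851 promoter windows. TTCNNNGAA, the core of STAT sites, matched among the members in Sult3a1 alone and in 8.3% of all windows. The GNTCATGANC match of Sult2a5 reads GGTCATGAAC, and at that place the Sult2a3 window reads GGTAATGAAC, with A instead of C. Neither the Sult2a3 window nor a Sult2a8 window matched either motif. A match describes letters and does not show that a factor binds.

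Per length, the female liver held several abundant Sult2a transcripts and the male liver held 1. In TPM, the deposited value that is scaled by transcript length and so allows genes to be compared, Sult2a2 led in females on the normal diet at 1341 ± 163 (SD, n = 4), followed by Sult2a8 at 1034 ± 99.1, Sult2a1 at 775.3 ± 239.5 and Sult3a1 at 385.4 ± 93.0. The libraries of Sult2a2 and Sult2a8 did not overlap, whereas those of Sult2a8 and Sult2a1, and of Sult2a1 and Sult3a1, did. In CPM these females averaged 1665 for Sult2a8, 524.2 for Sult2a2 and 503.0 for Sult2a1. The TPM lead of Sult2a2 on either diet depends on its model length, which is short in GENCODE M21. It also depends on the uncertain split of reads with Sult2a1. Far below came Sult2a7 at 61.0 ± 14.4 TPM and Sult3a2 at 23.2 ± 4.999 TPM. Sult2a3 at 10.8 ± 2.34 TPM and Sult2a5 at 10.1 ± 2.30 TPM overlapped in their libraries. Sult2a4 and Sult2a6 were near 0, at up to 0.3 and 0.09 TPM in any library of this group. In females on the high fat diet the order was Sult2a2 at 1793 ± 409 TPM, Sult2a1 at 1034 ± 313 TPM, Sult2a8 at 561.9 ± 142.8 TPM and Sult3a1 at 132.9 ± 109.8 TPM, and the ranges of these neighbours did not overlap. Sult2a3 followed at 98.4 ± 89.2 TPM, with libraries between 21.2 and 225.1 that overlapped those of Sult3a1 and of Sult2a5 at 23.9 ± 8.97 TPM.

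In males Sult2a8 stood alone. It measured 1022 ± 228 TPM on the normal diet and 986.8 ± 163.0 TPM on the high fat diet. The next member, Sult2a7, measured 3.20 ± 0.564 and 6.82 ± 1.56 TPM. Sult2a8 held 99.3% ± 0.396 (SD, n = 4) of the summed Sult2a TPM in males on the normal diet and 99.0% ± 0.201 on the high fat diet. In females it held 32.3% ± 4.996 on the normal diet and 16.1% ± 3.52 on the high fat diet, without overlap. Over the same groups the share of Sult2a2 was 41.5% ± 1.81 on the normal diet and 51.4% ± 5.31 on the high fat diet, and that of Sult2a1 was 23.6% ± 5.30 and 29.1% ± 3.39. The female shares carry the same limits of model length and read split.

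**Figure D1:**
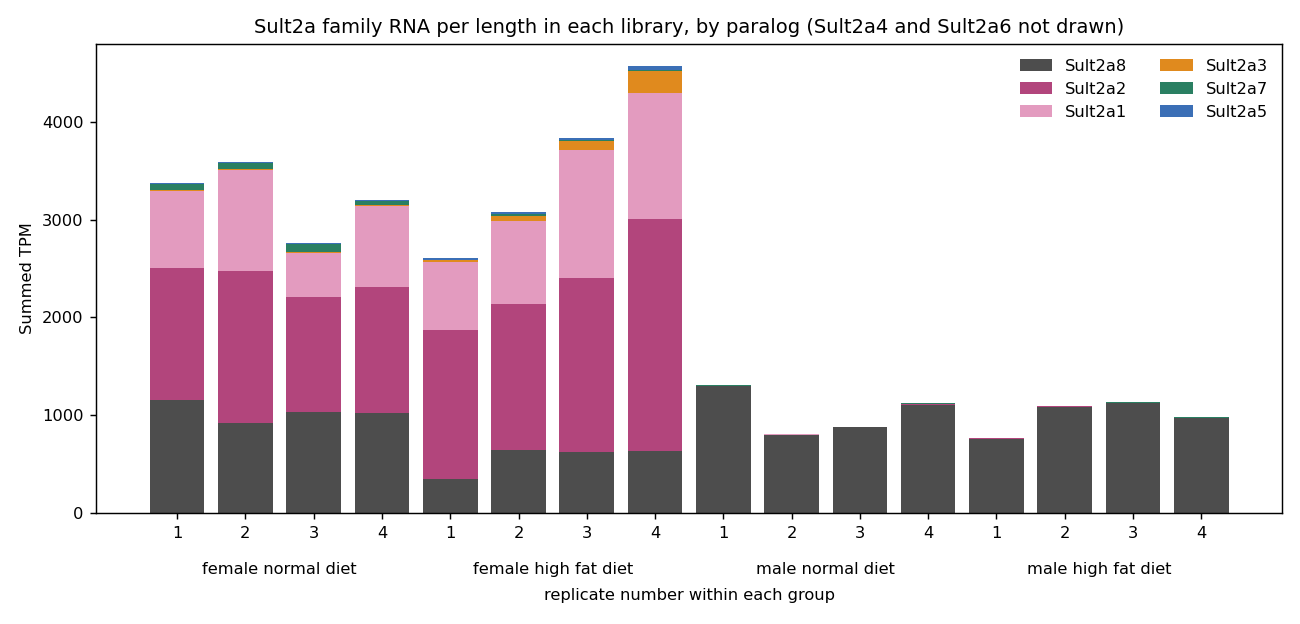
Summed TPM of the Sult2a genes (vertical axis, linear, from 0) in each of the 16 libraries, stacked by paralog, with replicate numbers on the horizontal axis. The male bars consist almost wholly of Sult2a8, and the female bars on the high fat diet have a smaller Sult2a8 part than those on the normal diet.

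Sult2a8, a bile acid sulfotransferase, was the member without a sex difference on the normal diet. Its level in CPM was 1959, 1556, 1519 and 1626 in the females on the normal diet (replicates 1 to 4) and 2273, 1253, 1373 and 1822 in the males. These groups overlapped, and the fitted log2 difference, females minus males, was -0.01 ± 0.21 (SE). On the high fat diet the females measured 475.6, 870.3, 883.1 and 821.4 CPM. All 4 lay below the lowest female on the normal diet, and the log2 difference between the diets in females was -1.13 ± 0.21, with a range of -1.20 to -0.92 over 26 alternative settings. The males on the high fat diet measured 1177, 1689, 1769 and 1463 CPM and overlapped the males on the normal diet. Their log2 difference of -0.14 ± 0.21 did not pass the test (edgeR quasi-likelihood test, adjusted p = 0.705). Sult2a8 was lower in females than in males on the high fat diet by a log2 difference of -0.999 ± 0.21 (edgeR, adjusted p = 0.00309), in 4 of 4 libraries. Without the alike male replicates 2 and 3 this difference was -0.79 ± 0.24 (edgeR, adjusted p = 0.0346), the weakest of all alternatives run. On TPM the females measured 1034 ± 99.1 on the normal diet and 561.9 ± 142.8 on the high fat diet, so the lower level was seen in both units.

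Sult2a1 and Sult2a2 are the hydroxysteroid sulfotransferases that together held most of the female Sult2a TPM. Of the female Sult2a CPM they held most on the high fat diet but not on the normal diet. Both were near 0 in males and overlapped between the diets in females. Sult2a1 measured 527.8, 692.3, 263.9 and 528.0 CPM in females on the normal diet and 374.5, 457.8, 738.5 and 676.9 CPM on the high fat diet. Sult2a2 measured 548.8, 638.1, 415.5 and 494.2 CPM on the normal diet and 505.6, 490.8, 612.7 and 766.2 CPM on the high fat diet. The fitted log2 differences between the diets were 0.16 ± 0.45 for Sult2a1 and 0.18 ± 0.44 for Sult2a2, both smaller than their errors. In males no library reached 2.4 CPM of either gene. Sult2a1 averaged 0.963 ± 0.717 CPM (SD, n = 4) on the normal diet and 0.664 ± 0.619 CPM on the high fat diet, and Sult2a2 averaged 0.811 ± 1.03 and 0.767 ± 0.404 CPM. Neither diet difference passed in males, with a log2 difference of -0.61 ± 0.67 for Sult2a1 (edgeR, adjusted p = 0.602) and of -0.19 ± 0.65 for Sult2a2 (edgeR, adjusted p = 0.889). At levels this near 0 these tests say little about diet in males. The male value of Sult2a2 rested on replicate 4 of the normal diet at 2.35 CPM, and without it the log2 difference became 1.296. On the high fat diet the excess of females over males was 9.70 ± 0.69 on the log2 scale for Sult2a1 and 9.58 ± 0.67 for Sult2a2. On the normal diet it was 8.93 ± 0.66 and 9.21 ± 0.66, the latter 10.70 without the same male replicate 4.

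Sult2a3 and Sult2a5, close relatives of Sult2a1, were the members whose female levels were higher on the high fat diet. Sult2a3 measured 7.71, 7.11, 7.83 and 4.94 CPM in females on the normal diet and 11.5, 30.0, 51.7 and 117.6 CPM on the high fat diet. The groups did not overlap, but the high fat libraries spread over a wide range, with replicate 4 the highest. The log2 difference was 2.94 ± 0.61, and it was 2.17 ± 0.51 without that replicate. Sult2a5 measured 5.93, 7.76, 7.76 and 5.14 CPM on the normal diet and 11.6, 11.3, 10.3 and 20.2 CPM on the high fat diet, again without overlap and with replicate 4 the highest. Its log2 difference was 1.01 ± 0.28, and 0.74 ± 0.27 without that replicate. The counts of Sult2a5 depend on the uncertain split of reads with Sult2a1 and Sult2a2, whereas those of Sult2a3 were whole in every library. In males both Sult2a3 and Sult2a5 were close to undetected. Sult2a3 had 20 counts in all in males on the normal diet, 19 of them in replicate 4, and 3 counts over the male libraries of the high fat diet. Sult2a5 had 4.04 counts, all in replicate 4 of the normal diet, and 0 counts on the high fat diet. On the high fat diet the female to male ratio of Sult2a3 was 1766, with a 95% counting interval of 604.0 to 8566. That of Sult2a5 was at least 473-fold, taking 3 counts over the male group as the floor. Such intervals and floors cover counting error only.

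Sult2a7, at the end of the cluster, went in opposite directions with diet in the sexes, which was known when the family was chosen. It measured 29.0, 26.2, 31.2 and 19.0 CPM in females on the normal diet and 0.332, 5.46, 5.27 and 2.94 CPM on the high fat diet. In males it measured 1.11, 1.48, 1.47 and 1.49 CPM on the normal diet and 3.57, 2.00, 2.82 and 2.97 CPM on the high fat diet. Neither pair of groups overlapped, and the log2 differences were -2.92 ± 0.48 in females and 1.02 ± 0.53 in males. Without replicate 1 of the females on the high fat diet the female value was -2.52 ± 0.23. The levels of both sexes met on the high fat diet, where the log2 difference of females minus males was 0.30 ± 0.50 and the libraries overlapped, against 4.23 ± 0.53 on the normal diet. Without that same replicate the difference on the high fat diet was 0.69 ± 0.23.

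Sult2a4 and Sult2a6 were hardly detected. Sult2a4 had 19.01 counts over the females on the high fat diet, 9 over those on the normal diet and 0 in males. Against the floor of 3 counts these are at least 5.93-fold and at least 2.83-fold above males. Sult2a6 had 1 and 3 counts in the female groups and 0 in males, which is at or under the floor. Neither passed the filter on low counts.

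**Figure D2:**
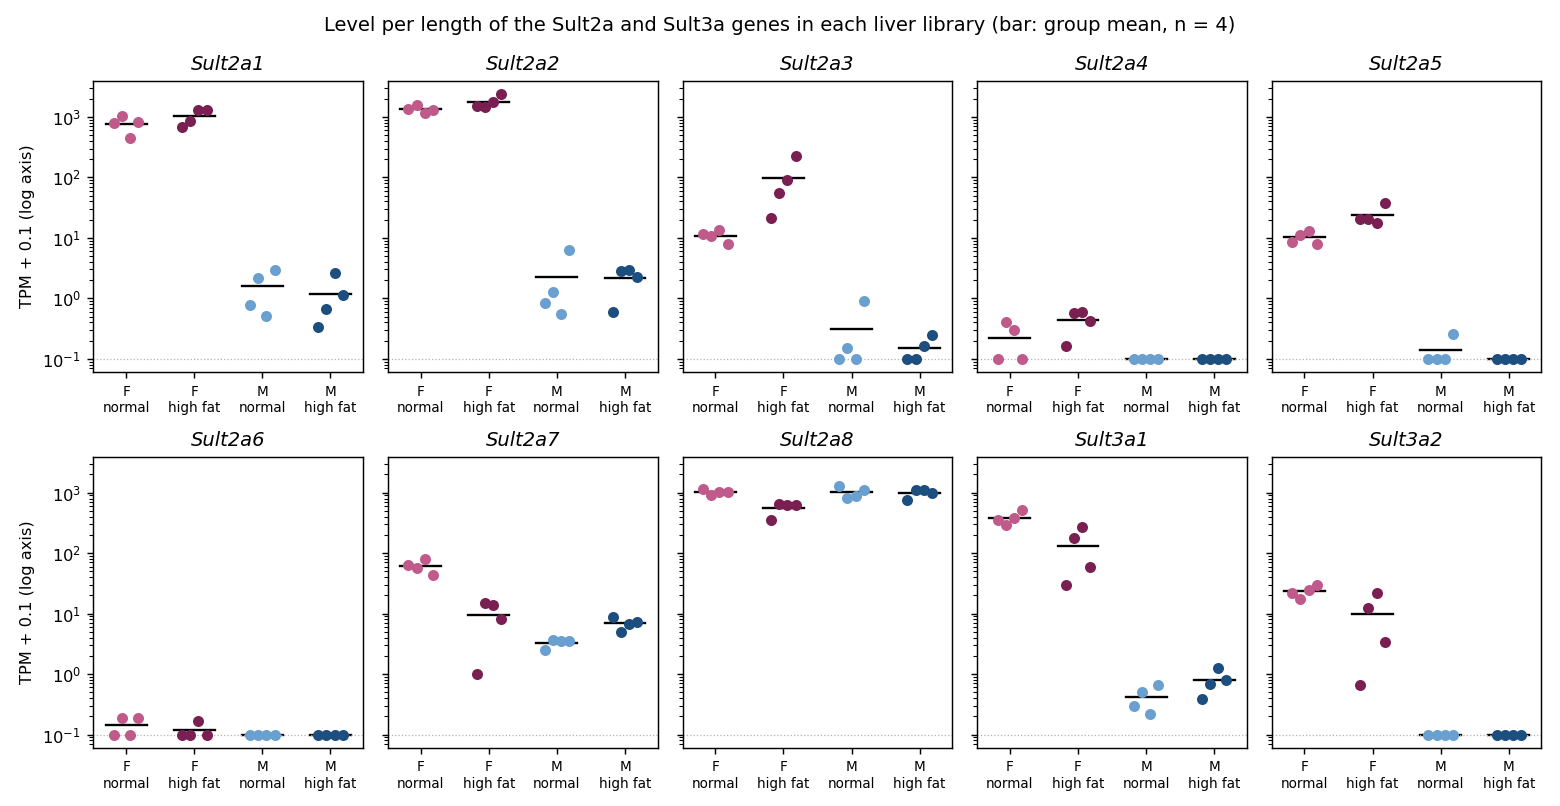
TPM plus 0.1 on a log axis for each of the 10 members (1 panel each), with 1 point per library in the 4 groups. Sult2a8 lies at about the same height in all but the females on the high fat diet, while the other panels have female points far above male points, except Sult2a7 on the high fat diet and the nearly undetected Sult2a4 and Sult2a6.

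Sult3a1 and Sult3a2, the amine sulfotransferases, were female genes with lower and more scattered values on the high fat diet. Sult3a1 measured 278.4, 237.0, 262.2 and 383.7 CPM in females on the normal diet and 19.3, 112.1, 179.1 and 34.8 CPM on the high fat diet. The groups did not overlap, and the log2 difference was -1.75 ± 0.54. Leaving out single libraries moved it between -2.39, without replicate 3 of the females on the high fat diet, and -1.42, without replicate 1. Sult3a2 measured 12.8, 10.2, 12.4 and 16.2 CPM on the normal diet and 0.272, 5.76, 10.96 and 1.53 CPM on the high fat diet. Here replicate 3 overlapped the normal diet, and the log2 difference was -1.48 ± 0.87. The same replicates were low for both genes, 1 and 4. The share of Sult3a2 in the summed Sult3a TPM of females was 5.70% ± 0.284 (SD, n = 4) on the normal diet and 5.35% ± 2.50 on the high fat diet.

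In males Sult3a1 stayed under 1 CPM, at 0.235 ± 0.149 CPM on the normal diet and 0.439 ± 0.237 CPM on the high fat diet. The log2 difference of 0.78 ± 1.11 did not pass (edgeR, adjusted p = 0.698), a test that says little at so few counts. Sult3a2 had 0 counts in all 8 male libraries. On the high fat diet Sult3a1 was higher in females than in males by 7.59 ± 0.78 on the log2 scale, and on the normal diet by 10.13 ± 0.85. Sult3a2 was at least 161-fold higher in females on the high fat diet and at least 521-fold higher on the normal diet.

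**Figure D3:**
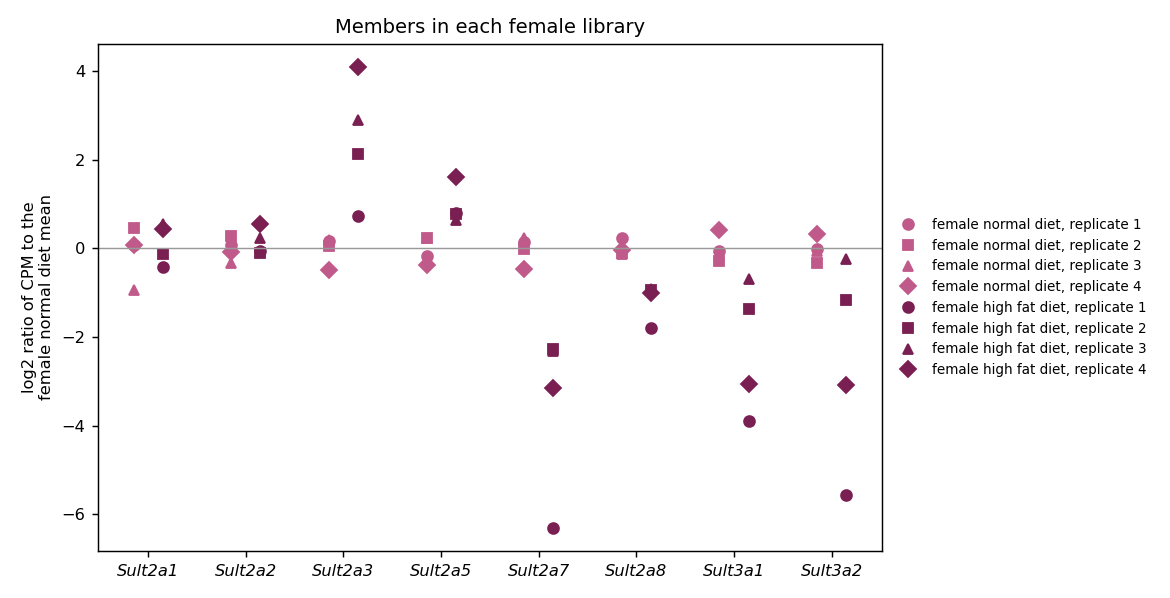
Log2 ratio of CPM to the mean of the females on the normal diet (vertical axis) for 8 members in the 8 female libraries. In replicate 1 of the high fat diet Sult2a7, Sult2a8, Sult3a1 and Sult3a2 are at their lowest, and in replicate 4 Sult2a3 and Sult2a5 are at their highest.

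The 4 females on the high fat diet differed in which members were displaced. Relative to the mean of the females on the normal diet, replicate 1 held 1.26% of the Sult2a7 level, 28.6% of Sult2a8, 6.66% of Sult3a1 and 2.11% of Sult3a2, the lowest of the group for each. It also had the lowest Sult2a3, at 166.4%. Replicate 4 had the highest Sult2a3, at 1705%, and the highest Sult2a5, at 304.0%, together with low Sult3a1, at 12.0%. Replicates 2 and 3 kept 38.6% and 61.7% of Sult3a1 and lay close to each other for Sult2a7, at 20.7% and 20.0%, and for Sult2a8, at 52.3% and 53.0%.

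The family sums showed how far the outcome depends on Sult2a8. Summed over its 8 genes, Sult2a measured 2732 ± 364 CPM in females on the normal diet, 1988 ± 468 in females on the high fat diet, 1683 ± 465 in males on the normal diet and 1529 ± 266 in males on the high fat diet. The libraries of the diets overlapped in both sexes. The log2 difference between the diets was -0.44 ± 0.20 in females and -0.14 ± 0.20 in males (edgeR, adjusted p = 0.685 in males). On log2(TPM + 1) the female value was 0.10, of the opposite sign, where the median of all genes moved by 0.15. The difference between the sexes on the high fat diet was 0.41 ± 0.20 on counts, where the libraries overlapped. On log2(TPM + 1) it was 1.80, without overlap. Both are given without a test, because Sult2a1 and Sult2a2 held most of the female sum on this diet in either unit. Without Sult2a8, which was chosen after seeing the data, the remaining members summed to 1067 ± 266 CPM in females on the normal diet and 1225 ± 328 on the high fat diet, against 3.32 ± 2.07 and 4.30 ± 0.899 in males. Their diet differences were 0.22 ± 0.31 in females and 0.33 ± 0.34 in males, given without a test because the sum includes Sult2a7. Females exceeded males on the high fat diet by 8.18 ± 0.43. The Sult3a sum was lower on the high fat diet in females by -1.72 ± 0.54 on the log2 scale. It did not pass in males, at 0.78 ± 1.12 (edgeR, adjusted p = 0.702), where its counts were too near 0 for the test to say much. The Sult3a sum was higher in females than in males on the high fat diet by 7.69 ± 0.79. The difference of the diet changes, females minus males, was -0.30 ± 0.28 for the Sult2a sum and -2.50 ± 1.24 for the Sult3a sum.

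**Figure D4:**
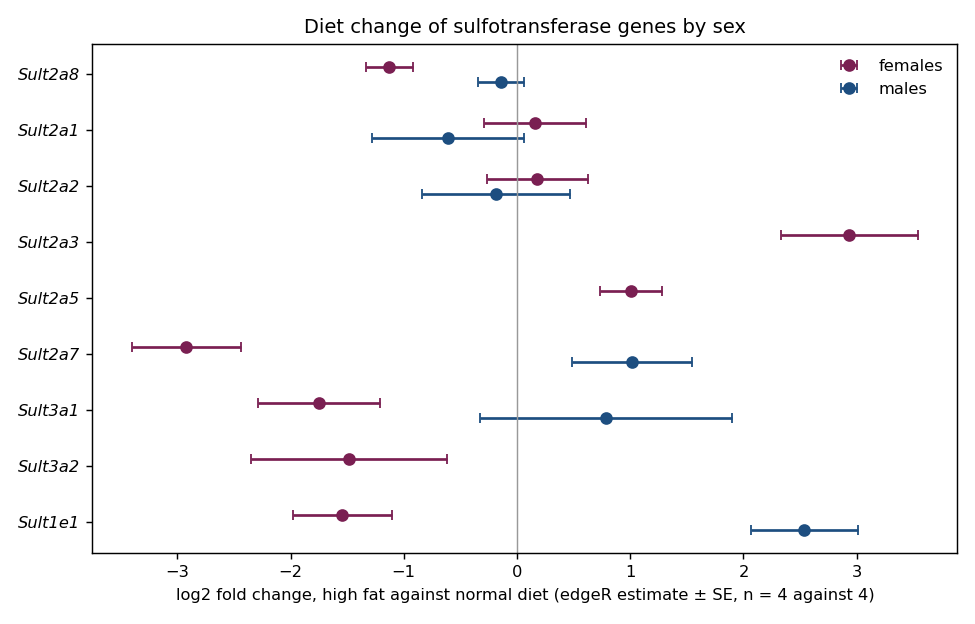
Log2 fold change of the high fat against the normal diet (horizontal axis, edgeR estimate with its SE, 4 libraries against 4) in females and males for 8 members and Sult1e1. Sult2a7, Sult1e1 and Sult3a1 lie left of 0 in females and right of 0 in males, where the SE of Sult3a1 reaches past 0. Male points of Sult2a3, Sult2a5 and Sult3a2 are left out because their counts were near 0.

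Of the 10 members, 8 passed the filter on low counts, and for all of them except Sult2a8 and Sult2a7 the counts came almost wholly from female libraries, so the counts of members that follow are no support for a sex difference. In females the diets did not overlap for 2 members that were higher and 3 that were lower on the high fat diet, where 8.71% and 9.55% of all 14781 tested genes did so. In males 0 of the 7 members tested were called by edgeR, with 0 at an unadjusted p under 0.05 and 0 by DESeq2. The 6 of them other than Sult2a8 averaged under 1 CPM in both male groups, so at this depth the count says little, and it cannot be set against the 11.4% of all genes called. Sult3a2, among the 7, had 0 counts in every male library and could not be called. Sult2a7 was higher in males on the high fat diet without overlap, as were 9.32% of all genes. On the normal diet 7 members were higher in females without overlap, against 9.86% of all genes. On the high fat diet 6 were higher in females without overlap, against 10.3% of all genes, and Sult2a8 was called lower, as were 11.6% of all genes. The female group is shared by the diet contrast and the sex contrast, so these counts are not independent of each other.

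The list of 22 other genes of sulfation held further sulfotransferases, the enzymes that make PAPS, sulfate and PAPS transporters, phosphatases of the by-product PAP, and a sulfatase, and 15 were tested. In females on the high fat diet 0 rose and 3 fell, where 11.5% of all genes were called, and the median log2 change was -0.18 against 0.00 over all genes. These were Sult1e1, the estrogen sulfotransferase, at -1.54 ± 0.44 (edgeR, adjusted p = 0.0306), Sult1d1, which acts on catecholamines, at -0.91 ± 0.25 (edgeR, adjusted p = 0.0284), and Bpnt1, a PAP phosphatase, at -0.32 ± 0.10 (edgeR, adjusted p = 0.0415). The calls were lost in 5, 9 and 20 of 26 alternatives. For Sult1e1 these were the fits without replicate 2 or 3 of the high fat diet or without replicate 1, 2 or 4 of the normal diet (edgeR, adjusted p up to 0.0873), for Sult1d1 they included those without replicate 1 or 4 of the high fat diet or 1 or 2 of the normal diet, and for Bpnt1 those without 13 of the 16 libraries in turn. Without replicate 1 or replicate 2 of the females on the normal diet the count was 0. In males 2 rose and 0 fell, where 11.4% of all genes were called, with a median of 0.36 against 0.01 over all genes. They were Sult1e1 at 2.54 ± 0.47 (edgeR, adjusted p = 0.00208) and Sult1a1, a phenol sulfotransferase, at 0.58 ± 0.18 (edgeR, adjusted p = 0.0408), the latter lost in 10 of 26 alternatives, among them those without replicate 2 or 3 of the males on the high fat diet or 1, 3 or 4 of the males on the normal diet. Sult1e1 was a low gene, at 1.89 ± 0.639 CPM (SD, n = 4) in females on the normal diet, 0.647 ± 0.252 in females on the high fat diet, 0.353 ± 0.234 in males on the normal diet and 2.10 ± 1.04 in males on the high fat diet. Its diet changes went in opposite directions in the sexes, and their difference of -4.08 ± 0.64 passed the test (edgeR, adjusted p = 0.00582, at most 0.0159 over the alternatives), as 1 gene of the list, where 0.677% of all genes were called.

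Between the sexes on the normal diet 6 genes of the sulfation list were higher in females and 2 lower, where 15.7% of all genes were called. Higher were Sult1a1 at 1.58 ± 0.18 on the log2 scale (edgeR, adjusted p = 1.30e-05), Sult1d1 at 1.62 ± 0.26 (edgeR, adjusted p = 0.000535), Sult1e1 at 2.39 ± 0.47 (edgeR, adjusted p = 0.00237), Sult1c2, Sult1b1 and the PAPS synthase Papss2. Lower were the sulfate transporter Slc26a11, at -0.75 ± 0.17 (edgeR, adjusted p = 0.00603), and Bpnt1. Leaving out single libraries ended the calls of Sult1b1 (5 libraries), Papss2 (replicate 2 of the females or 3 of the males) and Bpnt1 (6 libraries) on this diet. On the high fat diet 2 were higher and 2 lower, where 20.4% of all genes were called. Sult1c2 at 1.07 ± 0.27 (edgeR, adjusted p = 0.0119) and Sult1a1 at 0.67 ± 0.18 (edgeR, adjusted p = 0.0131) were higher. Bpnt1 at -0.55 ± 0.10 (edgeR, adjusted p = 0.00105) and Sult1e1 at -1.69 ± 0.44 (edgeR, adjusted p = 0.0124) were lower in females. The list medians were 0.51 on the normal diet and -0.22 on the high fat diet, against 0.00 and -0.01 over all genes. The call of Sult1e1 on the high fat diet was lost without replicate 1 of the males on that diet (edgeR, adjusted p = 0.0505), and that of Sult1a1 without replicate 4 of the same males (edgeR, adjusted p = 0.0509).

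The list of receptors and transcription factors with a known role in hepatic sulfotransferase or growth hormone dependent expression held 19 genes, of which 18 were tested. In females on the high fat diet 3 fell and 2 rose. Among the fallen genes were Nr1i2, which encodes the xenobiotic receptor PXR, at -0.79 ± 0.10 (edgeR, adjusted p = 0.000109) and Hnf4a, a hepatocyte nuclear receptor, at -0.60 ± 0.12 (edgeR, adjusted p = 0.00331), the latter not called on log2(TPM + 1) (limma, adjusted p = 0.0501). Foxa2 rose by 0.78 ± 0.20 (edgeR, adjusted p = 0.0205). The call of Foxa2 was lost without replicate 2 of the high fat diet or replicate 2 or 3 of the normal diet (edgeR, adjusted p up to 0.0585). The count was 2 without replicate 2 of the females on the normal diet, 3 without replicate 3 of that group and 3 without replicate 2 of the females on the high fat diet. In males 3 rose and 2 fell. Stat5a at 1.15 ± 0.19 (edgeR, adjusted p = 0.000834) and Stat5b at 0.71 ± 0.13 (edgeR, adjusted p = 0.00243), the growth hormone signal transducers, were among those that rose. Hnf4a fell by 0.47 ± 0.11 (edgeR, adjusted p = 0.0139), and Nr1i2 fell too, but not on log2(TPM + 1) (limma, adjusted p = 0.0583). The call of Hnf4a was lost without replicate 3 of the males on the normal diet (edgeR, adjusted p = 0.0582), without the alike replicates (edgeR, adjusted p = 0.0830) and on TPM. Without the alike male replicates 2 and 3 the count in males was 3.

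Cux2, a female-specific repressor, separated the sexes on both diets, by 6.03 ± 0.36 on the normal diet (edgeR, adjusted p = 8.81e-09) and 6.70 ± 0.40 on the high fat diet (edgeR, adjusted p = 5.98e-09). Of the list, 3 genes were higher and 2 lower in females on the normal diet, among them Nr1i2, which was higher, and Foxa1, which was lower. With the high fat diet 1 was higher and 4 were lower, among the latter Foxa1, Hnf4a and Onecut1. The call of Onecut1 on that diet was lost in 7 of 26 alternatives. Among those were the fits without replicate 1 or 4 of either sex and without the filter on low counts. It was also lost with the replicate number as a block and in the fit to the contrasted groups alone (edgeR, adjusted p = 0.0835). The call of Hnf4a was lost on TPM. The shares of all genes called in these contrasts are those given above for the sulfation list, and for males 11.4%. The medians of the list were -0.09 for diet in females, 0.10 for diet in males, -0.08 for the sexes on the normal diet and -0.23 on the high fat diet.

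Genes with the most similar pattern were ranked by Pearson correlation of log2 CPM over the 16 libraries, among 10822 genes. Libraries of one group share sex, diet and their scaling, so the values are descriptions. For the Sult2a sum they were Ebag9 (r = 0.949), Ugt1a1 (0.932), which conjugates bilirubin, Umad1 (0.918), F13b (0.918) and Cyb5a (0.915). For the Sult3a sum they were Cyp3a44 (r = 0.985), Slc22a26 (0.979), Cyp3a41a (0.973) and Cyp2a4 (0.970), which are 3 cytochrome P450 genes and an organic anion transporter gene. With the mean of each group taken off, the closest genes were Atg4a (r = 0.920), Nars2 (0.906), Ebag9 (0.903), Lect2 (0.890) and Atg5 (0.887) for the Sult2a sum. For the Sult3a sum they were then Atxn7l3b (r = 0.914), Ralgapa1 (0.914), Arl5a (0.905), Cldn12 (0.902) and Naa50 (0.895). For the Sult2a sum, Ebag9 alone was among the 5 closest genes in both rankings.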

How the data were processed

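Poly(A) RNA of whole liver was measured in 16 libraries, 4 in each of 4 groups taken from the sample titles. Per the submitters' processing notes, STAR, RSEM and GRCm39 were used, and versions and strandedness are not given in the sources used here. The authors deposited RSEM expected counts, which share multi-mapped reads between genes, and TPM, which divide by effective length. Of the expected counts 4.89% were not whole. They were rounded, and genes were kept by filterByExpr on the 4 groups (14781 of 78317 listed genes, 99.94% of counts). Symbols matched 51487 identifiers, with 98.97% of counts.

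Counts were scaled by TMM and fitted with the robust quasi-likelihood test of edgeR 4.0.16 (R 4.3.3), with 1 mean per group and all 16 libraries. P-values were two-sided, with Benjamini-Hochberg adjustment across the tested genes and a threshold of 0.05. SE is the size of the log2 fold change over the square root of F. CPM are relative to the TMM-scaled library size. For the sums, the members were replaced by their summed counts. Log2(TPM + 1) and log2(TPM + 0.1) were tested with limma 3.58.1, and DESeq2 1.42.0 served as another count test. On simulated data for the diet contrast in females, of 14549 genes with 200 changed, 72% of changes of 1 on the log2 scale and 98% of changes of 2 were recovered, and 3.95% of calls were false. The changed genes were drawn from those averaging over 1 CPM, and the simulated spread followed the fitted model. These rates therefore do not cover lower genes or other kinds of spread.

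The members and lists were chosen with earlier results of these data known. All 10 members are named, with the called genes of each list (values for at most 4 per contrast) and the 5 genes most like each sum whose mean log2 CPM was 1 or more. Some genes that these rules chose are not reported here, but they count in the list totals. Replicate numbers were not used as pairs in the main fit. Between libraries of the same number the correlation of deviations ran from -0.16 to 0.18 over 16 pairs, with 3 over 0.1. It had both signs between the diets and was above 0 in every pair of a female and a male library, from 0.022 to 0.18. A weak pairing between the sexes is therefore not settled by this check. Coding sequences came from GENCODE M21 and were aligned with Biopython 1.88, and promoters from RefSeq. The reference build differs from that of the counts, so no coordinates of counted genes are given.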

Additional observations from a re-analysis of the deposited data

Results flagged for a closer look

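Within each group of 4 libraries the highest and lowest values of the members were compared with the nearest other library by Dixon's criterion, for the tested members and the sums, in 37 groups. Chance flags about 1 in 20 such groups, and 6 stood apart. Replicate 1 of the females on the high fat diet was low for Sult2a8, at 475.6 CPM with the next library at 821.4. Replicate 4 of the same group was high for Sult2a5, at 20.2 CPM with the next at 11.6. Replicate 4 of the males on the normal diet was high for 3 members, Sult2a2 at 2.35 CPM (next 0.428), Sult2a3 at 0.514 CPM (next 0.0285) and Sult2a5 at 0.108 CPM (the others at 0). Replicate 1 of the males on the normal diet was low for Sult2a7, at 1.11 CPM with the next at 1.47.

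The diet changes differed between the sexes, females minus males on the log2 scale, by -4.08 for Sult1e1, called by edgeR. Sult2a7 differed by -3.94, with diet differences of opposite sign in the sexes and no overlap of the diets in either sex. This difference of the diet changes was not tested here because it led to the choice of the family.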

How the results depend on the processing

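The direction of the Sult2a sum depended on the unit and on Sult2a8. On log2(TPM + 1) and on log2(TPM + 0.1) its diet difference in females was 0.10 and 0.10, the difference of the diet changes 0.13 and 0.13, and the excess of females 1.67 and 1.67 on the normal diet and 1.80 and 1.80 on the high fat diet. Without Sult2a8 the values were 0.22 for diet in females, 0.33 for diet in males, 8.30 for the sexes on the normal diet and 8.18 on the high fat diet. Leaving out single libraries moved the diet difference of the sum in males between -0.26 and 0.033, the last without replicate 1 of the males on the normal diet. The Sult3a sum differed between the sexes on the normal diet by 8.26 on log2(TPM + 1). Among single members, the male diet difference of Sult2a2 turned to 0.20 and 0.41 on the TPM scales, to 0.12 without replicate 1 of the high fat diet and to 1.296 without replicate 4 of the normal diet, with a range of -0.48 to 1.296 over single libraries left out. That of Sult2a3 ranged from -3.40 to 0.96, the last without replicate 4, and that of Sult2a8 from -0.26 to 0.033, the last without replicate 1, of the males on the normal diet. The cause was not tested.

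With the replicate block, the Sult2a sum differed between the sexes on the high fat diet by 0.40 and the Sult3a sum by 7.51. The block left the all-gene counts within 1.5 times. Genes of the sulfation list called for diet in females were 1 if low counts were not filtered, 1 in fits to the contrasted groups alone and 0 to 3 with single libraries left out. For diet in males they were 4 with library size only, 4 by DESeq2, 1 with the alike replicates averaged and 1 to 4 with single libraries left out. For the difference of the diet changes they were 3 by DESeq2 and 1 to 2 with libraries left out. For the sexes on the high fat diet they were 7 with the replicate block, 7 without both alike replicates and 3 to 7 with libraries left out, and on the normal diet 5 to 9. Genes of the regulator list called were 2 to 6 for diet in females with libraries left out, 3 for diet in males without both alike replicates, and 9 in fits to the contrasted groups alone and 8 with the replicate block for the sexes on the normal diet. Over all genes, 1700 were called for diet in females and 947 to 2926 over the alternatives, 1684 for diet in males and 1113 to 2250, 2322 for the sexes on the normal diet and 1325 to 2895, 3022 on the high fat diet and 1958 to 3710, and 100 for the difference of the diet changes and 51 to 341.

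Library size without scaling moved the median of all genes by 0.19 for diet in females, and log2(TPM + 0.1) by 0.22. Members near 0 counts in males limit what the male diet contrast can show.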

Other observations

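The pseudogene Sult2a-ps1 was counted in 5 libraries, all female, with its highest expected count, 10.82, in replicate 4 of the females on the high fat diet, the library with the highest Sult2a3 and Sult2a5. The next was 5.34 in replicate 4 of the females on the normal diet. Sult2a-ps2 had 1 count in replicate 1 of the males on the normal diet, and Sult2a-ps3 and Sult2a-ps4 had 0 in all libraries.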
